A study of Mus musculus with 30 samples.

Results

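The comparison described here sets fasted livers that lack both PPARα and CREB3L3 against fasted wild-type (WT) livers, 8 of the 30 arrays of the study. The arrays were chosen by their labels alone: 4 are from PPARα/CREB3L3−/− mice and 4 from WT mice, and every probe set that carries 1 gene symbol was examined, which covers 18820 genes. All mice were males of about 8 weeks, housed on chow and fasted for 16 h before the livers were taken in the morning, and each array holds the RNA of 1 liver. Livers are numbered by the replicate of their label, and their values are given in that order. The PPARα−/− line (B6;129S4-Pparatm1Gonz/J) and the CREB3L3−/− line had both been backcrossed to C57BL/6 mice and were then interbred to give the PPARα/CREB3L3−/− mice, so both factors are missing from the whole body and not from hepatocytes alone. Whether the WT mice were littermates is not given in the sources used here. Fasted PPARα−/− livers (3 arrays) and fasted CREB3L3−/− livers (4 arrays) were used to see where the combined knockout went beyond either single one. PPARα/CREB3L3−/− and WT livers (4 arrays each) from a 4-day ketogenic diet without a fast showed whether an effect depended on the regimen.

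PPARα is a nuclear receptor that binds fatty acids and, with RXR as its partner, switches on the genes by which the fasted liver takes up, oxidizes and turns fatty acids into ketone bodies. CREB3L3, also called CREBH, is a transcription factor of liver and intestine that is held in the membrane of the endoplasmic reticulum (ER), is moved to the Golgi and cut there, and whose released part enters the nucleus. It is known for apolipoproteins, for FGF21 and for the handling of plasma triglycerides.

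*Creb3l3* read 5.36, 4.53, 4.83 and 4.87 log2 units in the PPARα/CREB3L3−/− livers, against 11.15, 11.28, 10.97 and 10.99 in the WT livers, with a log2 difference of -6.20 (SE 0.14, adjusted p = 3.03e-21). The separation was complete, so these 8 arrays match their labels for this gene. *Ppara* gave 8.31, 7.25, 7.97 and 9.09 in PPARα/CREB3L3−/− livers and 10.28, 10.19, 10.08 and 10.41 in WT livers, at -2.08 (SE 0.27, adjusted p = 4.01e-06). The mutant allele removes only a part of the gene while the probes are spread along the transcript, so this level is no check of the genotype. Hepatocyte markers were high in all 8 livers, and none of 9, among them *Alb*, *Ttr* and *Hnf4a*, was called, and their mean level was 12.88 to 12.97 in PPARα/CREB3L3−/− livers and 12.81 to 12.94 in WT livers. Arrays correlated at 0.986 to 0.990 within the combined knockout. WT liver 4 stood apart, at 0.981 to 0.983 with the other WT livers, which correlated at 0.988 to 0.989 among themselves. PPARα/CREB3L3−/− liver 4 had the lowest level of many stress genes of its group, as given below, and results that rest on either liver are also given without it.

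A call required P under 0.001 in a limma fit of all 30 arrays together with more than 1.2-fold between the means, as the study set it. Each gene was represented by the brightest of its probe sets. By this rule 1837 genes (9.76%) were called, 1093 of them higher (5.81%) and 744 lower (3.95%) in PPARα/CREB3L3−/− than in WT livers. These shares are the background for every count of higher and lower genes below. Over all 35556 probe sets, named or not, 6.98% were called. Values of the 4 combined knockout livers lay entirely above those of the 4 WT livers for 2077 genes (11%) and entirely below for 1820 genes (9.67%). The balance of directions depended on scaling. With each array centred on its median, 801 genes were higher and 971 lower, and after a repeated quantile normalization the numbers were 896 and 913. Over all genes the median log2 fold change was -0.03 as deposited, -0.09 after centring and -0.04 after the quantile step. The volcano plot shows the largest changes on both sides.

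**Figure D1:**
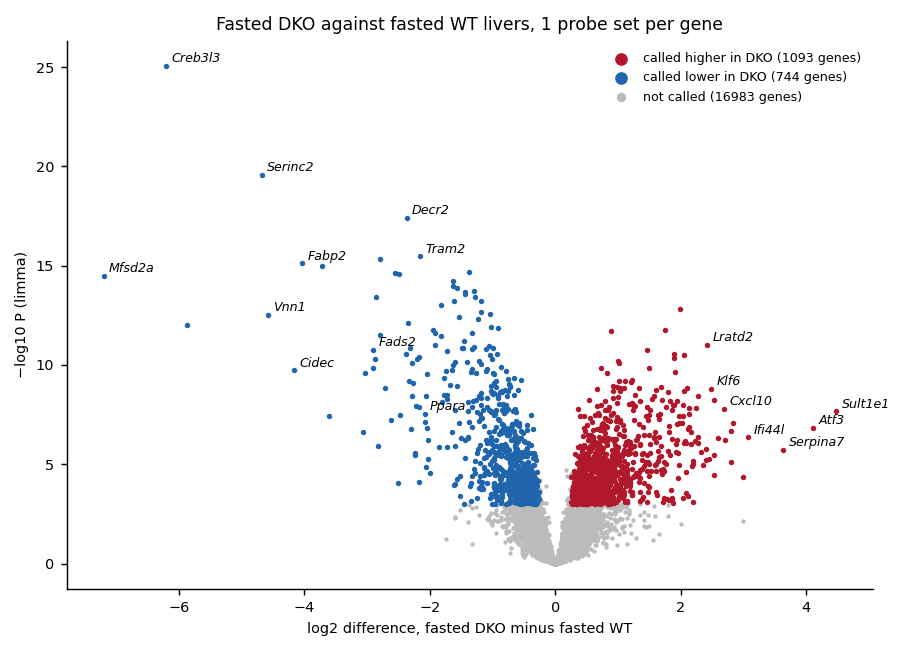
Log2 difference between fasted PPARα/CREB3L3−/− and fasted WT livers (horizontal axis) and −log10 of limma's P (vertical axis) for 18820 genes, 1 probe set each, with 1093 genes called higher in red, 744 called lower in blue and the others in grey. The extremes on the left are *Mfsd2a* at -7.20 and *Creb3l3* at -6.20, and those on the right *Sult1e1* at 4.48 and *Atf3* at 4.11.

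*Mfsd2a*, which encodes a transporter of lysophospholipids that carry long polyunsaturated fatty acids, had the most negative log2 difference measured. It read 4.15, 3.68, 3.57 and 4.06 in PPARα/CREB3L3−/− livers, against 11.01, 11.07, 11.01 and 11.19 in WT livers. Its level in all 4 combined knockout livers was below the median of any array, which ran over 4.22 to 4.38. The log2 difference was -7.20 (SE 0.43), and at so low a level in the combined knockout its size cannot be read as an exact fold. The same gene was at -2.04 against PPARα−/− livers (SE 0.47, adjusted p = 0.0209) and at -3.59 against CREB3L3−/− livers. *Serinc2*, a membrane protein thought to bring serine into lipids, read 5.21, 4.84, 4.71 and 5.05 in PPARα/CREB3L3−/− livers and 9.73, 9.56, 9.56 and 9.69 in WT livers (log2 -4.68, SE 0.17, adjusted p = 4.91e-16). *Vnn1*, a pantetheinase, fell by 4.58 (SE 0.33), and here combined knockout liver 4 at 7.10 was above the others at 4.98 to 5.77, while WT livers were at 9.75 to 10.87.

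On the other side, *Sult1e1*, which inactivates estrogens by sulfation, read 8.92, 8.03, 8.74 and 8.23 in PPARα/CREB3L3−/− livers, against 3.56, 4.53, 4.68 and 3.22 in WT livers, at 4.48 (SE 0.56, adjusted p = 3.13e-06). Its WT values lay near or below the array medians, so the size of the rise is not an exact fold. Against CREB3L3−/− livers *Sult1e1* was higher by 4.77, and against PPARα−/− livers it was at -0.11, which did not pass. *Serpina7*, the thyroxine-binding globulin of plasma, behaved differently. It read 8.98, 8.54, 9.20 and 9.47 in PPARα/CREB3L3−/− livers and 5.23, 5.22, 4.67 and 6.51 in WT livers, and was higher by 3.64 (SE 0.59) than in WT, by 3.32 than in PPARα−/− and by 2.58 than in CREB3L3−/− livers. *Gstm3*, a glutathione transferase, rose by 2.27 (SE 0.34) on its brighter probe set and by 3.28 on its dimmer one. Members of this gene family are close in sequence, so their probes may share signal.

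**Figure D2:**
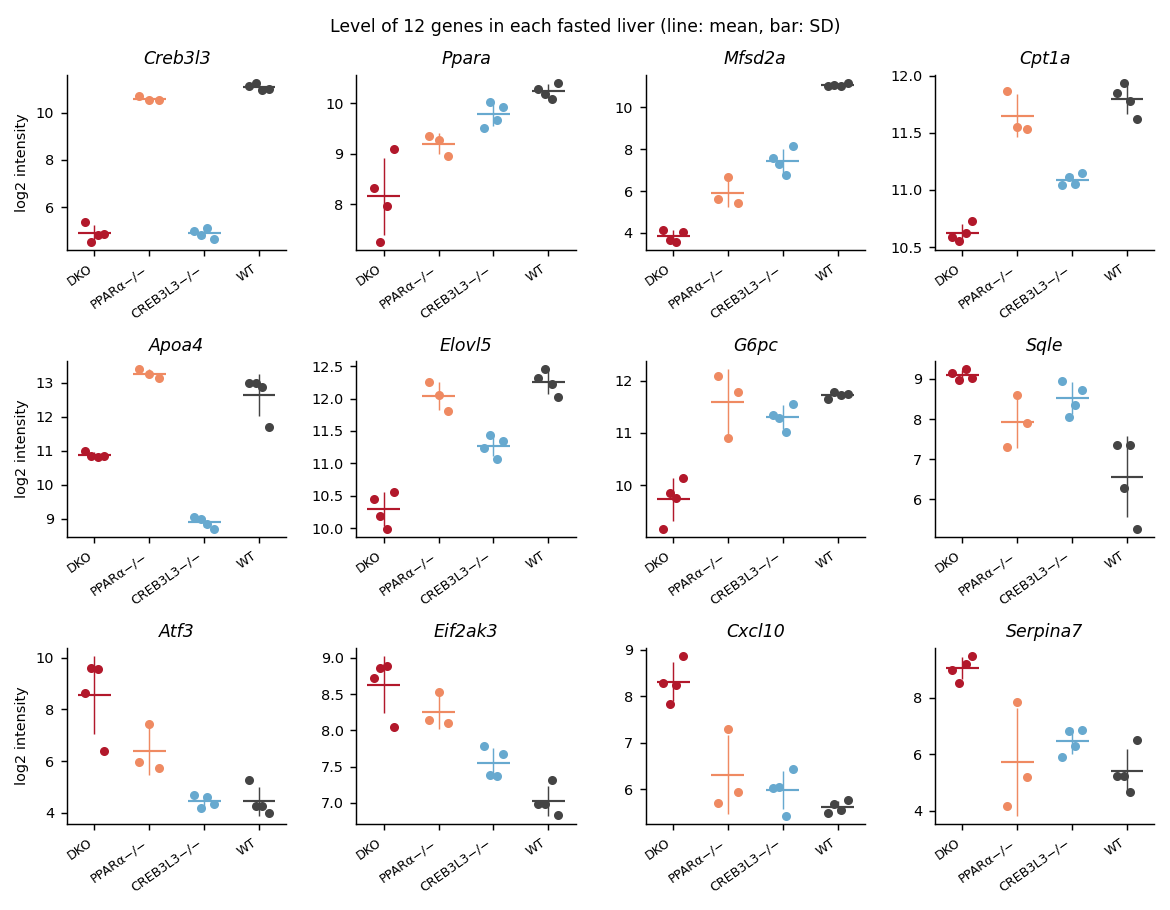
Log2 RMA intensity of 12 genes in each fasted liver (points; line, mean; bar, SD), with PPARα/CREB3L3−/− livers at the left of each panel, then PPARα−/− (n = 3), CREB3L3−/− and WT livers (n = 4 each). *Cpt1a*, *Elovl5*, *G6pc* and *Mfsd2a* are lowest and *Cxcl10* and *Serpina7* highest in the combined knockout, and *Atf3* shows 1 combined knockout liver at 6.41 below the others.

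Most of the measured genes of fatty acid oxidation fell. Of 34 textbook targets of PPARα, a list that holds *Creb3l3* itself, 28 fell and none rose, with a median log2 fold change of -1.25, and leaving out any of the 8 arrays left 27 or 28 of them. Of 22 enzymes and carriers of mitochondrial fatty acid oxidation, 19 fell, with a median of -1.08. The carnitine carrier *Slc25a20* read 9.12, 9.13, 9.05 and 9.35 in PPARα/CREB3L3−/− livers, against 10.88, 10.80, 10.69 and 10.77 in WT livers (log2 -1.63, SE 0.10, adjusted p = 1.74e-11). *Cpt2*, the inner carnitine palmitoyltransferase, was at -1.44 (SE 0.09), and the α and β subunits of the trifunctional protein, *Hadha* and *Hadhb*, were at -1.04 and -1.43 (SE 0.08 and 0.09). The medium-chain and long-chain acyl-CoA dehydrogenases *Acadm* and *Acadl* fell too, at -0.42 and -0.66, though *Acadm* was not called without combined knockout liver 2 (-0.35). Leaving out 1 array at a time left 17 to 19 of the 22. The 3 members not called were *Echs1*, *Acad10* and *Acad12*, at -0.12 to -0.51.

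Within this pathway the outer carnitine palmitoyltransferase *Cpt1a*, which controls entry of long-chain fatty acids into mitochondria, had a profile of its own. It read 10.59, 10.55, 10.62 and 10.73 in PPARα/CREB3L3−/− livers and 11.85, 11.94, 11.78 and 11.62 in WT livers, at -1.18 (SE 0.08, adjusted p = 1e-10). It was also below both single knockouts, at -1.03 against PPARα−/− livers (SE 0.09, adjusted p = 5.01e-08) and -0.46 against CREB3L3−/− livers (adjusted p = 3.25e-04). It was the only one of the 22 genes lower than in PPARα−/− livers. *Hadh*, the short-chain hydroxyacyl-CoA dehydrogenase, was higher than in PPARα−/− livers by 0.66 (adjusted p = 0.0246). Against PPARα−/− livers 2.41% of all genes (1.67% of probe sets) were called, 1.19% of genes higher and 1.22% lower. Against CREB3L3−/− livers 7.59% of genes (5.28% of probe sets) were called, 4.22% higher and 3.36% lower, and 18 of the 22 oxidation genes were among the lower ones.

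Peroxisomal fatty acid oxidation fell less widely. Of 25 genes measured, 13 were lower and none higher, with a median of -0.71. *Ehhadh*, the bifunctional enzyme, read 9.79, 9.88, 9.74 and 10.11 in PPARα/CREB3L3−/− livers, against 12.66, 12.42, 12.13 and 12.26 in WT livers (log2 -2.49, SE 0.15, adjusted p = 9.68e-12). *Decr2*, the dienoyl-CoA reductase of peroxisomes, fell by 2.37 (SE 0.11), and *Pex11a*, which acts in peroxisome division, was at -1.05 (SE 0.18). *Acaa1b*, the thiolase, fell by 1.44 but was higher by 0.92 than in PPARα−/− livers (adjusted p = 0.0462). Catalase (*Cat*) was at -0.09 and did not pass. Of 11 genes of ω-oxidation, the microsomal hydroxylases *Cyp4a14*, *Cyp4a31* and the fatty aldehyde dehydrogenase *Aldh3a2* fell, at -3.61, -2.47 and -1.07. Their spread in the combined knockout was wide, with *Cyp4a14* at 10.09, 8.26, 8.63 and 10.25 against 12.95, 12.93, 12.93 and 12.86 in WT livers, yet the groups did not overlap.

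Genes of fatty acid uptake and binding followed. Of 19 genes, 10 fell and none rose (median -0.51), and 8 or 9 fell when any 1 of the 8 arrays was left out. *Fabp2*, a fatty acid-binding protein best known from the intestine, read 6.45, 6.25, 6.49 and 6.67 in PPARα/CREB3L3−/− livers and 10.58, 10.64, 10.28 and 10.53 in WT livers (log2 -4.04, SE 0.23, adjusted p = 4.53e-12). It was at -3.32 against PPARα−/− livers, while against CREB3L3−/− livers it was at -0.66, which did not pass. *Slc27a1*, a fatty acid transporter, had the reverse profile, with -2.80 against WT, -2.78 against CREB3L3−/− and -0.19 against PPARα−/− livers. *Fabp1*, the abundant liver fatty acid-binding protein, fell by 2.23 (SE 0.38). The scavenger receptor *Cd36* was at 0.21 (SE 0.23, adjusted p = 0.632) and its groups overlapped.

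Among 27 genes of lipid droplets and lipolysis, 11 fell and 3 rose. *Cidec*, which lets droplets fuse, read 5.84, 5.30, 5.39 and 4.66 in PPARα/CREB3L3−/− livers, against 10.33, 10.07, 9.22 and 8.24 in WT livers (log2 -4.17, SE 0.41, adjusted p = 7.49e-08). Also lowered were *Plin5*, a coat protein, at -2.71 (SE 0.29), *Fitm1*, which acts in droplet formation, at -2.62 (SE 0.35), *G0s2*, an inhibitor of the lipase ATGL, at -2.24 (SE 0.37) and the monoglyceride lipase *Mgll* at -2.21 (SE 0.20). ATGL itself, *Pnpla2*, and the hormone-sensitive lipase *Lipe* fell, at -0.65 and -0.98. *Dgat2*, the enzyme of the last step of triglyceride synthesis, rose. It read 12.13, 12.16, 12.09 and 11.92 in PPARα/CREB3L3−/− livers and 10.99, 11.19, 11.27 and 11.45 in WT livers (log2 0.85, SE 0.11, adjusted p = 7.01e-06), and was higher than in PPARα−/− livers by 0.74 and than in CREB3L3−/− livers by 0.67. *Plin3*, another coat protein, rose by 0.91. *Plin2*, the main droplet coat of liver, was at -0.25 and its groups overlapped.

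Ketone body genes moved in both directions, with 3 of 7 lower and 3 higher. *Bdh1*, the mitochondrial β-hydroxybutyrate dehydrogenase, fell by 1.36 (SE 0.30, adjusted p = 0.00295), with 9.05, 8.40, 9.12 and 9.62 in PPARα/CREB3L3−/− livers against 10.51, 10.36, 10.22 and 10.55 in WT livers. Without combined knockout liver 2 it was at -1.15 and was not called. The thiolase *Acat1* and the monocarboxylate transporter *Slc16a1* fell, at -0.75 and -0.86. The cytosolic enzyme *Bdh2* rose by 1.19 and the transporters *Slc16a6* and *Slc16a7* by 1.28 and 0.90. *Slc16a6*, known in zebrafish for the export of β-hydroxybutyrate from the liver, was also higher than in either single knockout (1.15 against PPARα−/− and 1.35 against CREB3L3−/−). Its values of 7.46, 7.99, 7.90 and 6.88 in PPARα/CREB3L3−/− livers all lay above those of 6.06 to 6.48 in WT livers.

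The targets of CREB3L3 that the study names were then examined. Of 15, 13 fell. The list comes from a description of these same samples, so this count is not independent evidence of their direction. *Apoa4*, a plasma apolipoprotein, read 10.99, 10.84, 10.81 and 10.85 in PPARα/CREB3L3−/− livers, against 13, 12.98, 12.86 and 11.71 in WT livers (log2 -1.77, SE 0.20, adjusted p = 7.27e-07). It was higher than in CREB3L3−/− livers by 1.97 (adjusted p = 1.69e-07) on this probe set, whereas its dimmer probe set gave 0.45, which did not pass. *Apoc2*, the activator of lipoprotein lipase, fell by 1.05 (SE 0.15) and *Apoa5*, another protein of triglyceride clearance, was at -0.72 (SE 0.12), and both were lower than in PPARα−/− livers (-0.93 and -0.86). Of 14 apolipoproteins these 3 were the only ones called, and *Apob*, *Apoc3* and *Apoe* were at -0.03 to 0.11. *Fgf21*, the fasting hormone, read 4.41, 4.46, 3.74 and 3.57 in PPARα/CREB3L3−/− livers and 7.35, 6.96, 6.84 and 6.32 in WT livers (log2 -2.82, SE 0.45). The levels in the combined knockout were at or below 4.46, near the array medians.

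Of 8 genes of polyunsaturated fatty acid desaturation and elongation 5 fell, 1 rose and 2 did not pass. The δ-6 desaturase *Fads2* read 8.92, 8.17, 8.76 and 9.56 in PPARα/CREB3L3−/− livers, against 11.85, 11.84, 11.71 and 11.60 in WT livers (log2 -2.90, SE 0.25, adjusted p = 1.12e-08). The elongases *Elovl5* and *Elovl2* fell, at -1.95 and -1.92. *Elovl5* values of 10.45, 10.19, 9.99 and 10.56 in PPARα/CREB3L3−/− livers were also below those of CREB3L3−/− livers (-0.97, adjusted p = 1.12e-04) and PPARα−/− livers (-1.74), while WT livers read 12.02 to 12.45. *Elovl2* was at -1.91 against PPARα−/− livers and at -0.43 against CREB3L3−/− livers, which did not pass. The δ-5 desaturase *Fads1* fell by 0.68, and *Elovl1*, which elongates saturated chains, rose by 0.64.

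Cholesterol synthesis, which SREBP-2 drives when sterols are low, moved upward. Of 20 genes, 9 were higher and none lower, with a median of 0.97. Squalene epoxidase, *Sqle*, read 9.14, 8.98, 9.24 and 9.03 in PPARα/CREB3L3−/− livers, against 7.35, 6.27, 7.36 and 5.26 in WT livers (log2 2.54, SE 0.43, adjusted p = 1.75e-04). The combined knockout livers lay within 0.26 of each other and the WT livers varied by more than 2 log2 units. *Fdps*, farnesyl diphosphate synthase, rose by 1.68 (SE 0.27), *Cyp51*, the lanosterol demethylase, by 1.5 (SE 0.33) and the cytosolic HMG-CoA synthase *Hmgcs1* by 1.2 (SE 0.28), a call lost without WT liver 2 (1.1). Without WT liver 2 or WT liver 4, 6 of the 20 were called. Against CREB3L3−/− livers none of the 20 was called (median -0.07), and the same 20 genes gave 11 higher in CREB3L3−/− than in WT livers and none in PPARα−/− than in WT livers. Over all genes CREB3L3−/− livers differed from WT livers in 1.54% (0.648% higher and 0.893% lower) and PPARα−/− livers in 5.7% (3.11% higher and 2.58% lower). Against PPARα−/− livers *Hmgcs1* was higher by 1.29 and *Sc5d*, a sterol desaturase that did not pass against WT, by 0.70, and no other member was called. In fatty acid synthesis 1 of 13 genes rose and 2 fell: *Pklr*, the liver pyruvate kinase, at 0.89, the regulator *Srebf1* at -1.2 and the elongase *Elovl6* at -1.09.

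In glucose metabolism *G6pc*, the glucose-6-phosphatase that releases glucose from the liver, stood out. It read 9.16, 9.85, 9.76 and 10.13 in PPARα/CREB3L3−/− livers and 11.65, 11.78, 11.73 and 11.74 in WT livers (log2 -2.0, SE 0.39, adjusted p = 9.30e-04). It was lower than in PPARα−/− livers (-1.87, adjusted p = 0.0200) and than in CREB3L3−/− livers (-1.58, adjusted p = 0.0107). Other genes of gluconeogenesis were less affected: the glycerol-3-phosphate dehydrogenase *Gpd1* and the transaminase *Gpt* fell, at -1.05 and -0.54, whereas *Pck1*, the cytosolic phosphoenolpyruvate carboxykinase, was at -0.08 (SE 0.35) and *Fbp1* at -0.29 (SE 0.17), neither of which passed. Lactate dehydrogenase A, *Ldha*, fell by 1.23 (SE 0.09, adjusted p = 5.80e-10) and was below both single knockouts, at -0.74 against PPARα−/− and -0.54 against CREB3L3−/− livers. In the TCA cycle 4 of 16 genes fell, led by *Suclg1* at -0.99 and *Dlst* at -0.77, and citrate synthase, *Cs*, rose by 0.62, with 7 lower after centring. Complex I of the respiratory chain had 9 of 34 subunits lower and none higher, with a median of only -0.27. Here scaling mattered, since centring each array gave 16 lower subunits and the repeated quantile normalization 12.

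Several stress programs were higher. The integrated stress response is the program in which phosphorylation of eIF2α raises translation of ATF4, and it had 9 of 24 genes higher and 2 lower (median 0.75). *Atf3*, a transcription factor of stressed cells, read 8.65, 9.59, 9.57 and 6.41 in PPARα/CREB3L3−/− livers, against 5.26, 4.26, 4.26 and 4.01 in WT livers (log2 4.11, SE 0.57, adjusted p = 1.49e-05). Combined knockout liver 4 was the lowest of its group, though above all WT livers. Most WT values of *Atf3* were near the array medians, so the size of its rise is not an exact fold. *Nupr1*, a chromatin-binding stress protein, gave 8.31, 9.0, 8.96 and 7.16 in PPARα/CREB3L3−/− livers and 5.09 to 5.59 in WT livers (log2 3.0, SE 0.61). *Atf4* itself rose by 1.16 (SE 0.18, adjusted p = 5.21e-05), the pseudokinase *Trib3* by 2.20 (SE 0.40) and the mitochondrial folate enzyme *Mthfd2* by 2.18 (SE 0.40). *Chac1*, which degrades glutathione, rose by 1.84 (SE 0.42), but combined knockout liver 4 at 4.89 lay within the WT range of 4.30 to 5.61, and its call was lost without combined knockout liver 2 or 3 or WT liver 1 (1.43 to 1.72). Asparagine synthetase, *Asns*, at 1.80 (SE 0.57, adjusted p = 0.0394), did not pass, its WT livers running over 5.37 to 8.43, but was called without combined knockout liver 4 (2.45) or WT liver 3 (2.22). Without combined knockout liver 4, 11 of the 24 were higher. The 2 lower members were *Fgf21* and the folate enzyme *Shmt2*.

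The same liver decided the count for cytosolic aminoacyl tRNA synthetases, which load tRNAs with amino acids. With all arrays 4 of 17 rose, among them *Sars* by 0.90 and *Cars* by 0.79. Without PPARα/CREB3L3−/− liver 4, 10 of 17 did. The calls of *Sars* and *Cars* were lost when only the arrays of the compared groups were fitted. *Cars* read 7.53, 8.02, 7.78 and 6.99 in PPARα/CREB3L3−/− livers, against 6.68, 6.80, 6.70 and 7.0 in WT livers. None of the integrated stress response genes was called against PPARα−/− livers (median 0.36), and 9 were called higher against CREB3L3−/− livers. Against the same WT livers none of the 24 was higher in either single knockout. In PPARα−/− livers 2 were lower (median 0.29) and in CREB3L3−/− livers 1 was lower.

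Sequences before 3 of the genes are shown because they hold the C/EBP-ATF response element (CARE) to which ATF4 binds in many stress genes. The element was searched as TGATGNAA on both strands of the 250 bases before the start of 27025 mouse genes in a RefSeq promoter table of build GRCm38.p6. It occurred before 3.91% of all genes and before 7 of the 20 integrated stress response genes with a promoter in the table (24 are measured). The 7 were *Asns*, *Atf3*, *Chac1*, *Fgf21*, *Nupr1*, *Slc7a11* and *Vldlr*. Of these *Fgf21* fell, and *Asns* and *Slc7a11* did not pass. The risen *Atf4*, *Trib3*, *Mthfd2* and *Slc3a2* had no such element in the window. Capitals mark the element, which reads on the opposite strand in each case.
*Atf3* (chr1:191183406-191183473, minus strand): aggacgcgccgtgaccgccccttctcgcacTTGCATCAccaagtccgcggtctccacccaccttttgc
*Nupr1* (chr7:126625543-126625610, minus strand): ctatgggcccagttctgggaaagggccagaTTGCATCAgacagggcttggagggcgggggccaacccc
*Chac1* (chr2:119351019-119351086, plus strand): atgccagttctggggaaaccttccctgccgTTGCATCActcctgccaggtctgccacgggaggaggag
A match of letters is a description and no proof of binding.

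Genes of the unfolded protein response, by which the ER adds chaperones when unfolded protein builds up, rose in number but by little. Of 28 genes, 19 were higher and none lower, with a median of 0.50. The exception in size was *Eif2ak3*, which encodes the ER kinase PERK. It read 8.72, 8.86, 8.89 and 8.05 in PPARα/CREB3L3−/− livers, against 6.98, 6.99, 7.32 and 6.83 in WT livers (log2 1.60, SE 0.18, adjusted p = 4.92e-07). The sensor *Atf6* rose by 1.03 (SE 0.11, adjusted p = 5.26e-07) and the sensor *Ern1*, which encodes IRE1α, by 0.96 (SE 0.19). *Ern1* was also higher than in PPARα−/− livers (0.80, adjusted p = 0.0418) and CREB3L3−/− livers (0.84). The chaperone BiP, *Hspa5*, read 12.68, 12.90, 12.68 and 12.42 in PPARα/CREB3L3−/− livers and 12.14 to 12.36 in WT livers, a fold change of 1.37 (log2 0.45, SE 0.09), which was not called after the repeated quantile normalization (0.35). *Hsp90b1*, GRP94, rose by 0.36, *Creld2*, a folding factor, by 0.90 and the cochaperone *Hyou1* by 0.79. The call of *Creld2* was lost when combined knockout liver 1 or 2 or WT liver 1 or 2 was left out (0.74 to 0.87). Against PPARα−/− livers *Ern1* was the only one of the 28 called, and the list gave 14 higher in PPARα−/− and 9 higher in CREB3L3−/− livers than in the same 4 WT livers. The counts moved with single arrays, to 13 without WT liver 2 or combined knockout liver 2 and to 21 without combined knockout liver 4. *Creb3l2*, a relative of CREB3L3 in the ER membrane, rose by 1.23 (SE 0.15, adjusted p = 1.58e-06), and *Creb3l1* was at 0.28 and did not pass.

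The promoters of several of these genes hold the ER stress response element (ERSE), CCAAT and CCACG set 9 bases apart, at which ATF6 and XBP1 act with NF-Y. In this form, on either strand, it occurred in the same window of 0.13% of all genes and of 9 among 23 unfolded protein response genes with a promoter in the table (28 are measured). The risen *Eif2ak3* and *Ern1* had no such element in the window, and here too a match is no proof of binding. Shown are 3 of the members that rose, with the element in capitals, on the opposite strand for *Creld2*. The *Hsp90b1* window holds 2 copies, of which 1 is shown.
*Hspa5* (chr2:34771995-34772073, plus strand): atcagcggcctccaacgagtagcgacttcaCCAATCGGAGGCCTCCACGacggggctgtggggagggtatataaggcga
*Hsp90b1* (chr10:86705608-86705686, minus strand): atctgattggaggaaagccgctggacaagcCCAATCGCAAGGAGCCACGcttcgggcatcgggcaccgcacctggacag
*Creld2* (chr15:88819490-88819568, plus strand): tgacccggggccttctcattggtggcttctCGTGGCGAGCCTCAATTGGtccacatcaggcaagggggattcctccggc

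Immediate early genes, which cells switch on within minutes of a stimulus, and phosphatases that restrain stress kinases had 11 of 27 members higher and none lower (median 0.97). Without WT liver 2 the count was 6. *Jun* read 8.91, 9.16, 9.21 and 8.56 in PPARα/CREB3L3−/− livers, against 7.18, 6.94, 6.85 and 7.31 in WT livers (log2 1.89, SE 0.17, adjusted p = 2.37e-08). *Klf6*, a zinc finger factor, read 9.12, 9.29, 9.24 and 7.98 in PPARα/CREB3L3−/− livers and 6.01 to 6.63 in WT livers, and was higher than in PPARα−/− livers by 1.11 (adjusted p = 0.0543) and than in CREB3L3−/− livers by 2.12. *Dusp8*, a phosphatase of JNK and p38, rose by 2.84 (SE 0.38). *Fos* at 0.97 (SE 0.34, adjusted p = 0.0635) did not pass. Of 22 p53 targets 5 rose and 1 fell. *Gadd45a*, a growth arrest gene, read 7.12, 8.43, 7.90 and 6.05 in PPARα/CREB3L3−/− livers, against 4.97, 4.97, 4.49 and 4.71 in WT livers (log2 2.59, SE 0.39), and was higher than in PPARα−/− livers by 2.31. *Plk3* and *Trp53inp1* rose by 2.28 and 1.64, while *Mdm2* at 0.34 and *Cdkn1a* at 1.36 did not pass, the second of which was called without combined knockout liver 4 (1.96).

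Interferon-stimulated genes were the list with the largest share of higher members, 21 of 26, with a median of 1.40. In bulk RNA a difference in the number of cells of a type and one in the RNA per cell cannot be told apart. *Cxcl10*, a chemokine that draws T cells, read 8.29, 7.84, 8.25 and 8.86 in PPARα/CREB3L3−/− livers, against 5.49, 5.69, 5.55 and 5.76 in WT livers (log2 2.69, SE 0.33, adjusted p = 2.55e-06). It was higher than in PPARα−/− livers by 2.0 and than in CREB3L3−/− livers by 2.33. *Ifit3*, an antiviral protein, rose by 2.17 (SE 0.31) and was likewise higher than in PPARα−/− (1.28) and CREB3L3−/− livers (2.25). Of the 26 genes, 4 were called higher than in PPARα−/− livers and 22 higher than in CREB3L3−/− livers. The guanylate-binding proteins *Gbp2* and *Gbp3* rose by 1.51 and 1.74 and the deconjugating enzyme *Usp18* by 1.93 (SE 0.30, adjusted p = 6.91e-05). *Ifi44l*, which is not on the list, read 6.99, 6.41, 6.47 and 7.48 in PPARα/CREB3L3−/− livers and 3.09 to 4.21 in WT livers (log2 3.08, SE 0.46). These WT values were below the median of any array, so the size is not an exact fold. *Ifit1* at 1.80 (SE 0.49, adjusted p = 0.0151), *Irf9*, *Stat2*, *Dhx58* and *Iigp1* did not pass, and *Ifit1* was called without combined knockout liver 2 (2.20). Averaged over the 26 genes, PPARα/CREB3L3−/− livers lay between 7.92 and 8.73, PPARα−/− livers between 7.29 and 8.15, CREB3L3−/− livers between 6.54 and 7.14, and WT livers between 6.69 and 7.17. Leaving out any of the 8 arrays left 18 to 21 called.

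No marker of macrophages (15 measured), neutrophils (9), B cells (7), cholangiocytes (8), stellate cells (14) or sinusoidal endothelium (13) was called in PPARα/CREB3L3−/− against WT livers, and 1 B cell marker was lower without WT liver 3. The mean of the macrophage markers was 7.43 to 7.82 in PPARα/CREB3L3−/− livers, against 7.13 to 7.55 in WT livers. The largest difference among them was *Gpnmb*, at 1.48 (SE 0.46, adjusted p = 0.0354) with groups that did not overlap. Of 11 T and NK cell markers *Ncr1*, a receptor of NK cells, rose by 0.60 and *Cd4* fell by 0.98, at a mean list level of 3.20 to 3.39 in PPARα/CREB3L3−/− and 3.45 to 3.58 in WT livers, which is below the median of an array. The *Ncr1* call was lost when any 1 of 5 arrays was left out (0.43 to 0.61) and after centring (0.54). The part of such cells in the interferon and inflammatory genes was not tested.

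The interferon-stimulated response element (ISRE) is a short motif found before many genes that interferons induce. Searched on both strands as GAAA and GAAACT with any 2 bases between them, it was found in the 250 bases before 0.255% of all genes and before 8 of 19 interferon-stimulated genes with a promoter in the table (26 are measured). Of the 8, *Ifit1* did not pass against WT livers. The risen *Ifit2*, *Isg15*, *Oasl2* and *Xaf1* had no such element in the window, and a match of letters is no proof of binding. The 3 stretches shown belong to members that rose, with the element in capitals, on the opposite strand for *Ifit3* and *Gbp2*.
*Cxcl10* (chr5:92349061-92349132, minus strand): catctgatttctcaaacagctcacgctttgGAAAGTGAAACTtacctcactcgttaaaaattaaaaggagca
*Ifit3* (chr19:34583341-34583412, plus strand): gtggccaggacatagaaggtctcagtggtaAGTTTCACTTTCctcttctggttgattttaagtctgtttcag
*Gbp2* (chr3:142620572-142620643, plus strand): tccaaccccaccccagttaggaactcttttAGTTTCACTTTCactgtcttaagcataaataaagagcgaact

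Under the ketogenic diet the same genes went the other way. There 20 of the 26 were lower and none higher in PPARα/CREB3L3−/− than in WT livers (median -1.66), against a background of 10.3% lower and 7.44% higher over all genes. In ketogenic livers *Cxcl10* was at -1.32, *Gbp2* at -1.95 and *Ifit3* at -2.66. The difference of the knockout effect between the regimens, fasted minus ketogenic, was tested in the same fit and passed for all 26 genes, where 6.36% of all genes passed in that direction. It was 4.63 (SE 0.69, adjusted p = 2.97e-05) for *Ifit1* and 4.68 (SE 0.44, adjusted p = 4.03e-08) for *Gbp3*. The mean over the list was 5.59 to 5.89 in ketogenic PPARα/CREB3L3−/− livers and 6.85 to 8.14 in ketogenic WT livers. Macrophage markers were at 6.84 to 7.34 in ketogenic PPARα/CREB3L3−/− and 7.23 to 7.97 in ketogenic WT livers, with 6 of 15 lower and 1 higher. Decreases there were not limited to macrophages. Of sinusoidal endothelium markers 9 of 13 were lower and 1 higher, of hepatocyte markers 5 of 9 lower and of stellate cell markers 3 of 14. No marker of cholangiocytes (8) or neutrophils (9) was called. The part of any of these cells in the result was not tested.

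**Figure D3:**
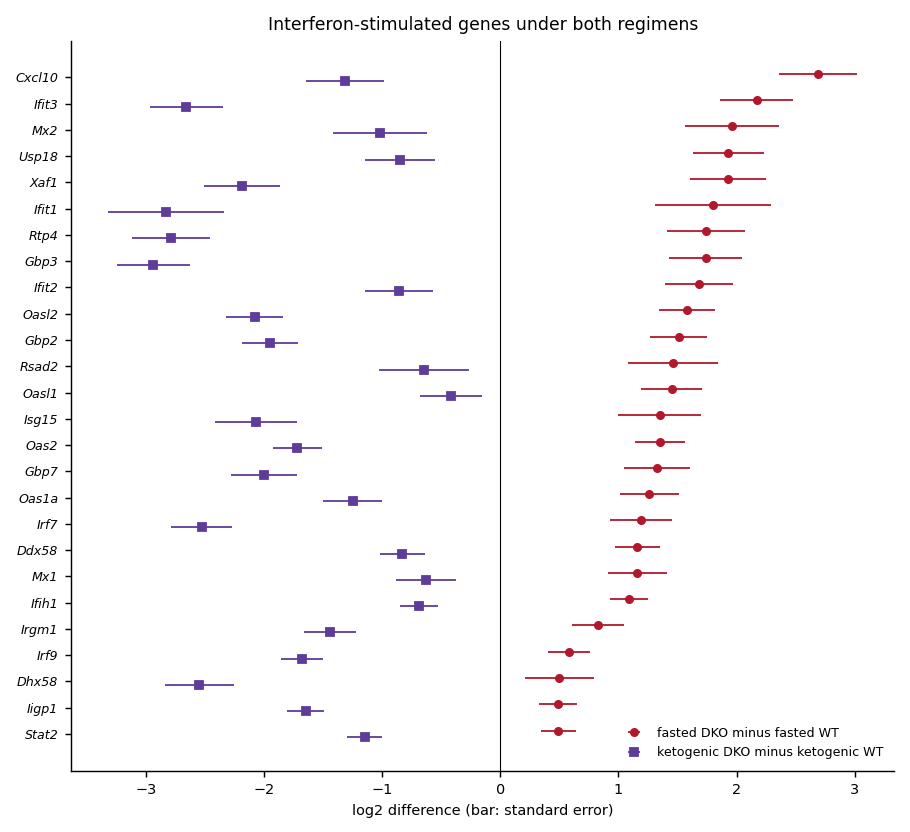
Log2 difference between PPARα/CREB3L3−/− and WT livers (bar, SE) of 26 interferon-stimulated genes in fasted mice (red circles) and in mice fed the ketogenic diet (purple squares). All fasted values are above 0 and all ketogenic values below, and *Cxcl10* has the largest fasted value at 2.69.

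Acute phase proteins, which the liver secretes in inflammation, had 10 of 24 members higher and none lower (median 0.43), and 6 without combined knockout liver 3. *Lcn2*, lipocalin 2, read 10.98, 11.26, 11.41 and 11.18 in PPARα/CREB3L3−/− livers, against 10.02, 8.42, 9.46 and 7.29 in WT livers (log2 2.41, SE 0.42, adjusted p = 2.73e-04). *Orm3*, which encodes an orosomucoid, rose by 2.35, *Apcs*, serum amyloid P, by 1.64 and *Steap4*, a metalloreductase, by 1.80. The serum amyloids *Saa2* and *Saa3*, at 1.56 (SE 0.80) and 1.42 (SE 0.48), did not pass. Against PPARα−/− livers none was higher and 1 was lower. Of 26 genes of inflammatory signalling 6 rose. *Tlr2*, a receptor of bacterial lipoproteins, read 6.65, 6.61, 7.0 and 6.86 in PPARα/CREB3L3−/− livers and 4.69 to 5.10 in WT livers (log2 1.88, SE 0.23), and was higher than in PPARα−/− livers by 1.33. *Relb*, a subunit of NF-κB, rose by 1.2 and *Icam1*, an adhesion molecule, by 1.58. *Il1b*, *Tnf* and *Nfkbia* were at 0.04 to 0.42 and did not pass.

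Antioxidant genes under NRF2 had 11 of 30 members higher and none lower (median 0.45). *Nqo1*, a quinone reductase, read 6.89, 7.40, 7.03 and 6.83 in PPARα/CREB3L3−/− livers, against 5.52, 5.43, 5.44 and 5.73 in WT livers (log2 1.51, SE 0.19, adjusted p = 2.90e-06). Heme oxygenase, *Hmox1*, rose by 2.23 (SE 0.34), sulfiredoxin, *Srxn1*, by 1.61 (SE 0.31) and *Gclc*, the catalytic subunit of glutathione synthesis, by 1.17 (SE 0.24), whereas *Gclm* at 0.30, *Txnrd1* at 0.46 and *Gsr* at 0.13 did not pass (*Txnrd1* did without combined knockout liver 4, at 0.57). Of 33 transferases of drug and hormone conjugation 9 rose and 1 fell. *Sult1c2* rose by 2.06 and was higher than in PPARα−/− livers by 1.34 and than in CREB3L3−/− livers by 1.28. *Abcc4*, an export pump of conjugates, rose by 1.65 and was higher than in either single knockout (1.30 and 1.51). Among 34 cytochromes P450 of families 1 to 3, 6 rose, with *Cyp2a22* at 2.54 and *Cyp2c55* at 2.33, and 1 fell. In bile acid synthesis the 12α-hydroxylase *Cyp8b1* read 9.55, 8.36, 8.56 and 9.34 in PPARα/CREB3L3−/− livers and 10.69 to 11.21 in WT livers (log2 -2.06, SE 0.38), and *Cyp7b1* fell by 1.35, a call lost when any 1 of 5 arrays was left out (-1.11 to -1.34).

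Heat shock genes of cytosol and mitochondria went down. Of 11, 6 were lower and none higher (median -0.38). *Hsph1*, an exchange factor of HSP70, read 9.11, 8.54, 8.67 and 8.86 in PPARα/CREB3L3−/− livers, against 9.72, 9.86, 9.87 and 9.78 in WT livers (log2 -1.01, SE 0.18, adjusted p = 2.99e-04). *Dnajb1* and *Hsp90aa1* fell, at -0.84 and -0.73, while the constitutive *Hspa8* was at 0.06. Against CREB3L3−/− livers 8 of the 11 were lower. None of 25 mitosis genes and 3 of 25 genes of DNA replication were called, all of those lower, among them the repressor *E2f8* at -1.60 (SE 0.35), which read 5.54, 5.89, 5.59 and 4.35 in PPARα/CREB3L3−/− livers and 6.36 to 7.77 in WT livers. Without combined knockout liver 4 it was at -1.27 and was not called.

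**Figure D4:**
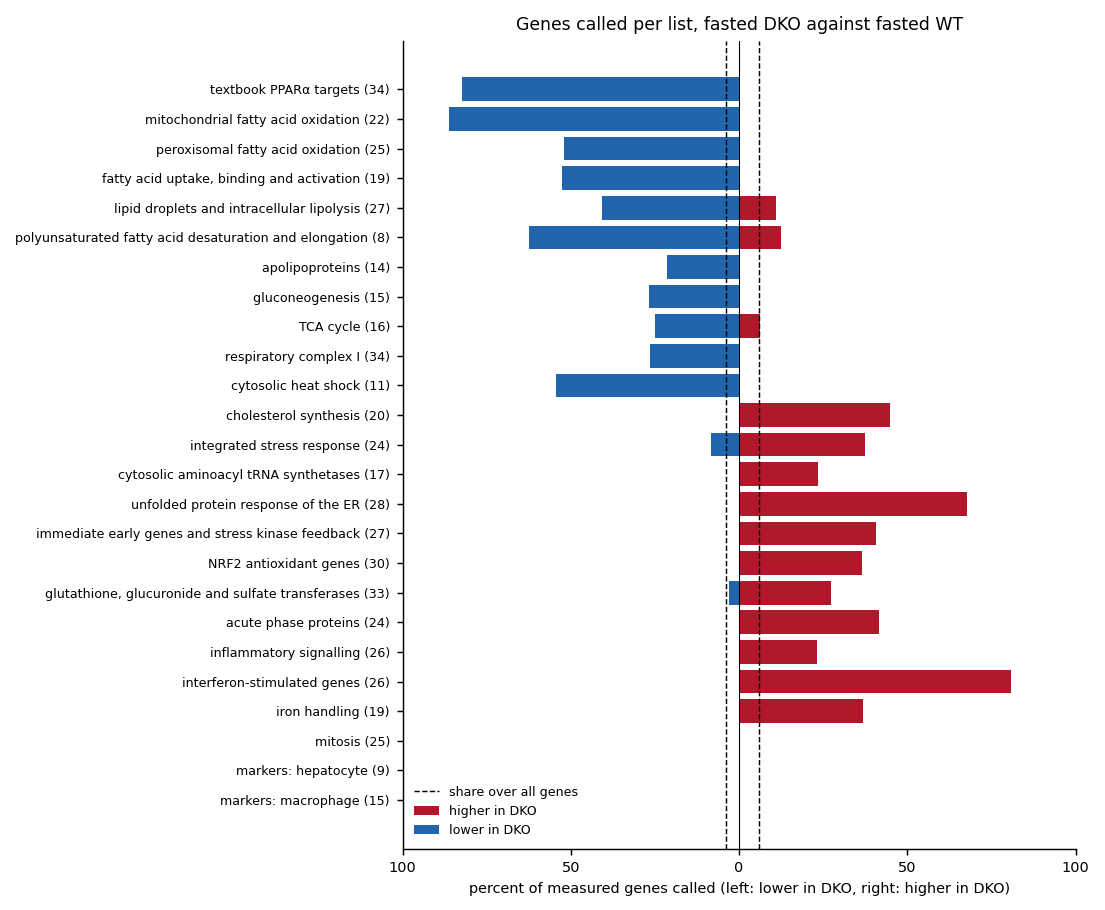
Percent of the measured genes of 25 lists (number measured in brackets) called lower (blue, left) or higher (red, right) in fasted PPARα/CREB3L3−/− than in fasted WT livers. Dashed lines give the share over all genes, 3.95% lower and 5.81% higher, and the bars run furthest for mitochondrial fatty acid oxidation (19 of 22 lower) and interferon-stimulated genes (21 of 26 higher).

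Hormones and their carriers changed as well. Of 26 secreted factors and growth hormone axis genes 6 rose and 4 fell. *Igfbp1*, a binding protein of insulin-like growth factors that rises in fasting, read 12.30, 12.40, 12.32 and 11.21 in PPARα/CREB3L3−/− livers, against 10.13, 9.82, 10.30 and 9.20 in WT livers (log2 2.20, SE 0.39). *Igfbp2* fell by 1.51 (SE 0.30), and *Igf1* itself was at 0.14 and its groups overlapped. *Angptl8*, a secreted protein that restrains lipoprotein lipase, rose by 1.86 (SE 0.47), a call lost when any 1 of 6 arrays was left out (1.70 to 1.90), and *Angptl4*, another such inhibitor, fell by 0.67 (SE 0.10). Of 19 iron genes 7 rose. *Hamp2*, a relative of hepcidin, read 6.34, 5.72, 6.20 and 8.32 in PPARα/CREB3L3−/− livers and 3.41 to 4.35 in WT livers (log2 2.70, SE 0.41). The WT values of *Hamp2* were near or below the array medians, so this size is not an exact fold. Hepcidin itself, *Hamp*, was at 0.37 with overlapping groups, and both genes are near copies that may share probe signal. The iron exporter *Slc40a1* rose by 1.11 (SE 0.18). Of 32 nuclear receptors and hepatocyte factors 2 rose and 5 fell: *Pparg*, the PPAR of fat tissue, rose by 1.23 (SE 0.19, adjusted p = 7.76e-05), and the estrogen receptor *Esr1* fell by 1.2 (SE 0.19), with -0.03 against CREB3L3−/− livers, which did not pass. The number that rose was 1 without combined knockout liver 2, without WT liver 1 or after centring, and 3 without WT liver 4.

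The genes that went beyond both single knockouts were defined as those called in the same direction against WT, PPARα−/− and CREB3L3−/− livers. There were 91 such genes higher (0.484% of all) and 41 lower (0.218%), and their total of 132 became 83 without PPARα−/− liver 1 and 161 without PPARα/CREB3L3−/− liver 4. The 3 comparisons share the 4 combined knockout arrays, so a gene with chance high or low values in these 4 livers would tend to pass all of them. The plot of 18 of these genes gives the combined and the single effects side by side.

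**Figure D5:**
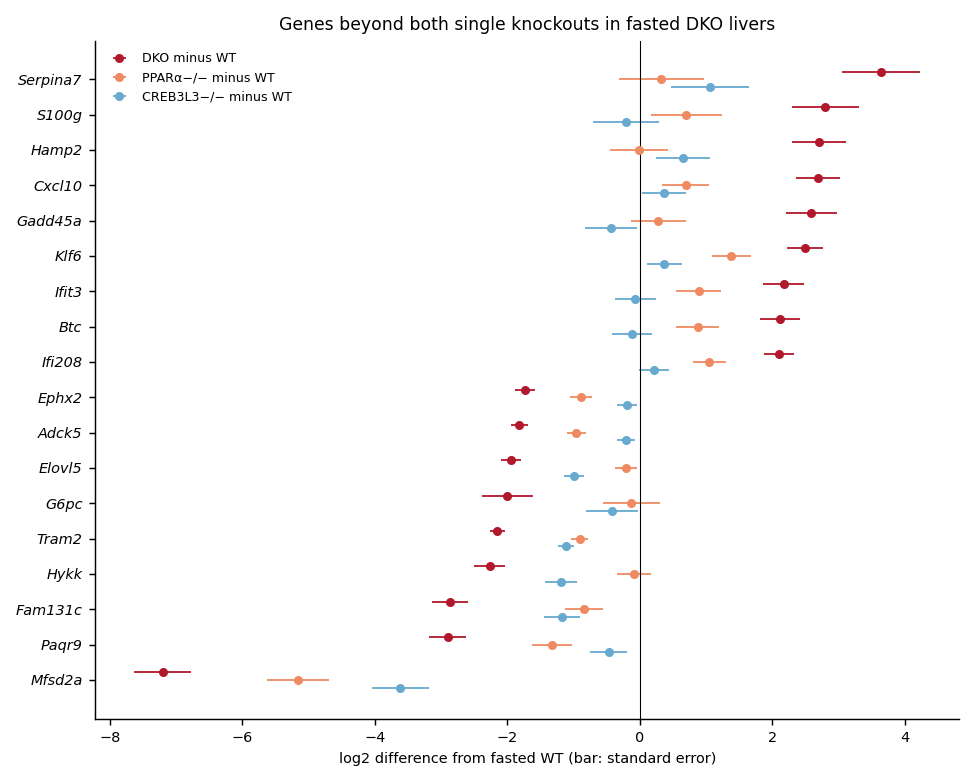
Log2 difference from fasted WT livers (point; bar, SE) of 18 genes called in the same direction against WT and against both single knockouts, for PPARα/CREB3L3−/− (red), PPARα−/− (orange) and CREB3L3−/− livers (blue). *G6pc* is at -2.0 in the combined knockout, against -0.13 and -0.42 in PPARα−/− and CREB3L3−/− livers, and *Hamp2* at 2.70, against -0.01 and 0.65.

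Besides *Mfsd2a*, *G6pc*, *Elovl5*, *Cxcl10*, *Gadd45a*, *Klf6* and *Serpina7*, the group held genes of varied function. *Paqr9*, a membrane receptor of the progestin and adiponectin receptor family, read 7.46, 7.22, 7.23 and 8.31 in PPARα/CREB3L3−/− livers, against 10.18 to 10.63 in WT livers (log2 -2.90, SE 0.28). It was at -1.33 in PPARα−/− and -0.47 in CREB3L3−/− livers, each against WT. *Hykk*, hydroxylysine kinase, fell by 2.27 (SE 0.24, adjusted p = 2.50e-07), with -0.09 and -1.19 in the single knockouts. *Ephx2*, the soluble epoxide hydrolase of fatty acid epoxides, read 10.70, 10.46, 10.46 and 10.70 in PPARα/CREB3L3−/− livers and 12.25 to 12.38 in WT livers (log2 -1.73, SE 0.15), with -0.89 and -0.20. Further lowered were *Tram2*, a protein of the ER translocon, at -2.15 (SE 0.12), *Adck5*, a mitochondrial kinase-like protein, at -1.82 (SE 0.13) and *Fam131c*, of unknown function, at -2.87 (SE 0.27). The single effects of *Tram2* were -0.91 and -1.12.

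On the higher side *S100g*, the calcium-binding calbindin-D9k, read 6.96, 5.89, 5.94 and 4.81 in PPARα/CREB3L3−/− livers, against 3.10, 2.95, 2.78 and 3.57 in WT livers (log2 2.80, SE 0.50, adjusted p = 3.21e-04), with 0.70 in PPARα−/− and -0.21 in CREB3L3−/− livers. *Btc*, betacellulin, a ligand of the EGF receptor, rose by 2.11 (SE 0.30), with 6.66, 7.29, 7.37 and 5.99 in PPARα/CREB3L3−/− livers and 4.51 to 5.15 in WT livers. *Ifi208*, an interferon-inducible gene of the PYHIN family, rose by 2.10 (SE 0.23), with 1.05 and 0.21 in the single knockouts. WT values of *S100g* were all below the median of any array, so the size of its rise cannot be read as an exact fold. *Hamp2* had its highest value in combined knockout liver 4, and *S100g*, *Btc*, *Gadd45a* and *Klf6* had their lowest there.

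Among the 1837 genes called in fasted livers the effect of the combined knockout also differed between the regimens for 531. Of these, 371 had risen and 160 had fallen after the fast, and 113 were called in the opposite direction under the ketogenic diet. The fasted effect is a term of this difference, so genes called after the fast pass more readily and nothing is read from their number. Over all genes the regimen difference was called for 9.76% (6.36% higher and 3.4% lower), and over all probe sets for 8.26%, while the ketogenic comparison itself called 17.7% of genes and 14% of probe sets. The balance of directions was not stable: by gene 1197 were higher and 639 lower, against 1019 and 813 after the repeated quantile normalization, and over all probe sets 1532 were higher and 1405 lower, which turned to 1309 and 1595 after that step. Cholesterol synthesis was among these lists. Under the ketogenic diet 10 of its 20 genes were lower and none higher in PPARα/CREB3L3−/− than in WT livers, and the regimen difference was called higher for 16. *Sqle* was at -1.05 in ketogenic livers, with a difference of 3.58 (SE 0.61, adjusted p = 1.36e-04), and *Hmgcs1* at -1.44, with a difference of 2.64 (SE 0.40). *Serpina7* was at -0.16 in ketogenic livers (difference 3.80, SE 0.84, adjusted p = 0.00232), and *Lratd2*, a gene of little known function, at 0.16 (difference 2.25, SE 0.29). *Pcp4l1*, a small calmodulin-binding protein, was at -0.30 (difference 2.76).

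Some genes of fat handling fell more under the diet than after the fast. *Fabp1* was at -5.78 in ketogenic livers, a difference of 3.55 (SE 0.53, adjusted p = 3.02e-05), *Vnn1* at -6.74 (difference 2.16, SE 0.47) and *Fads2* at -4.72 (difference 1.82, SE 0.36). In mitochondrial fatty acid oxidation 19 of 22 genes were lower in either regimen, and the regimen difference was called for *Cpt2* alone (0.80, SE 0.13, adjusted p = 1.25e-04). Larger decreases after the fast were found for *Fam131c* (difference -2.45, SE 0.38), *Slc27a1* (-1.54, SE 0.22) and *Tmtc2*, a transmembrane protein of the ER (-1.34, SE 0.32). Regimen covers both the diet and the feeding state, which cannot be told apart here.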

How the data were processed

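Liver RNA was hybridized to Affymetrix mouse gene arrays, 1 per mouse. The deposited values are log2 intensities that the authors obtained by robust multi-array analysis (RMA: background correction, quantile normalization and median polish), and the quantile step removes shifts common to all genes of an array. The methods name a remapped probe annotation, whereas the deposited identifiers are those of the manufacturer, and 21218 of 35556 probe sets were paired with 1 gene symbol, 1881 with several and 12457 with none through a platform annotation that can be old. Array data carry no read depth, so the number of arrays limits the precision. Replicates are separate mice of a label. The p-values rest on 1 spread per probe set, pooled over the mice of all groups and drawn towards that of probe sets of like intensity. They do not measure the spread of the compared mice alone.

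A mean per group (8 groups, 30 arrays) was fitted in R 4.3.3 with limma 3.58.1 (lmFit, eBayes with an intensity trend), and contrasts were taken from it. P-values were adjusted by Benjamini-Hochberg over all probe sets. Unadjusted P under 0.001 and a fold beyond 1.2 made a call. The study's own variance model (IBMT) was an alternative. The code was tested on simulated data. Beside the fasted and regimen contrasts, lists of 1122 genes were counted, of which 996 matched the arrays. The members and lists were chosen with earlier results of these data known. Named were *Ppara* and *Creb3l3*, up to 12 of the largest non-overlapping changes each way, up to 10 each way beyond both single knockouts, up to 6 each way that differed between regimens, and list members. Promoters were searched with Python 3.11.15 in RefSeq sequences, and figures drawn with matplotlib 3.10.9.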

Additional observations from a re-analysis of the deposited data

Results flagged for a closer look

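For 356 groups of 4 livers (178 genes, fasted PPARα/CREB3L3−/− and WT), 13 had 1 liver set apart from the others by Dixon's ratio of its gap to the range. Chance alone would set apart about 1 in 20 independent groups, a larger share than was found. These groups come from the same livers, and some genes were named because their groups did not overlap. The share therefore cannot decide about a single liver, and none is called an outlier or cleared of being one. PPARα/CREB3L3−/− liver 4 made up 6 of the 13, with *Apoc2* at 11.14, *Cdkn1a* at 7.44, *Igf1* at 11.35, *Igfbp1* at 11.21, *Klf6* at 7.98 and *Plk3* at 10.38. In the same group *Alb* was set apart in liver 1 (13.3), *Fitm1* in liver 2 (6.72) and *Slc27a1* in liver 3 (5.23). WT liver 4 was set apart for *Abcc4* (5.62), *Apoa4* (11.71) and *Cyp7b1* (10.8), and WT liver 1 for *Srxn1* (8.43).

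The effect of the combined knockout differed between the fasted and the ketogenic regimen, by the test of that difference, for 67 of these genes, where it did so for 9.76% of all genes. Some of the genes were named for that difference and others belong to the interferon list, so the count in part restates their choice. The strongest, at an adjusted p under 1e-05 in limma's fit, are given here as fasted minus ketogenic. Among interferon-induced genes *Ifit3* was at 4.83, *Gbp3* at 4.68, *Cxcl10* at 4.01, *Ifi208* at 3.65, *Gbp2* at 3.46, *Dhx58* at 3.06, *Irf9* at 2.26, *Iigp1* at 2.13 and *Stat2* at 1.64. Among metabolic genes the thiolase *Acaa1b* was at 3.12, *Dgat2* at 1.46, the sterol desaturase *Sc5d* at 1.5 and the transaminase *Gpt* at -1.4. *Lratd2* was at 2.25, the imprinted *Peg3* at -2.42 and the thyroxine carrier *Ttr* at 0.86.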

How the results depend on the processing

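Counts here are of all probe sets, except those of genes beyond both single knockouts. PPARα/CREB3L3−/− against WT gave 2482 calls, 636 at a fold beyond 2 and 4153 at an adjusted P under 0.05. When only the compared arrays were fitted there were 1948. In that fit 8 of 178 genes of the text lost their call (*Cars*, *Chac1*, *Ctsl*, *E2f8*, *Hadh*, *Mthfd2*, *Ncr1* and *Sars*). Another 4 gained one (*Gpnmb*, *Irf9*, *Saa3* and *Sc5d*). Against PPARα−/− there were 593, 193 at a fold beyond 2 and 363 when only the compared arrays were fitted. Against CREB3L3−/− there were 1877 and 529 at a fold beyond 2. The ketogenic comparison gave 4972, 1431 at a fold beyond 2 and 7620 at the adjusted threshold. The regimen difference gave 2937, 1148 at a fold beyond 2, 4609 at the adjusted threshold and 1836 with 1 probe set per gene. Genes beyond both single knockouts numbered 132, 43 at a fold beyond 2 and 218 with array weights. A changed threshold or 1 probe set per gene alters a count by construction. For the array weights and for the smaller fits the cause was not tested. Leaving out 1 array gave 1915 (PPARα/CREB3L3−/− liver 2) to 2576 (liver 4) against WT, 286 (PPARα−/− liver 1) to 677 (PPARα−/− liver 2) against PPARα−/−, 1460 to 1939 against CREB3L3−/−, 4301 to 4692 for the ketogenic comparison, 2547 to 2934 for the regimen difference and 83 to 161 for genes beyond both. Over all probe sets, deviations of same-numbered fasted PPARα/CREB3L3−/− and WT livers correlated at -0.0127 to 0.0693. The other groups were not compared in this way, so whether the numbers pair mice was not settled. With the number as a replicate block the counts were 2488 against WT, 567 against PPARα−/−, 1879 against CREB3L3−/−, 4927 for the ketogenic comparison, 2937 for the regimen difference and 154 beyond both. Centring each array changed the share of higher calls against PPARα−/− to 37.5%, against 49.2% as deposited. The ketogenic comparison, the genes beyond both and the list counts under these settings were added after seeing the data. No named gene reversed in any of the alternatives run. The number of arrays a group, 3 or 4, limits the precision.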

Other observations

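Genes of autophagy and lysosomes, not described above, rose in part. Of 31, 7 were higher and 1 lower in PPARα/CREB3L3−/− than in WT livers, at a median of 0.09, and 4 were higher without WT liver 4. Among general autophagy genes *Atg7* at 0.32, *Atg5* at -0.32 and *Ulk1* at -0.41 did not pass. *Sqstm1*, the autophagy receptor p62, read 11.77, 12.17, 11.95 and 11.30 in PPARα/CREB3L3−/− livers and 10.97, 10.97, 10.85 and 10.74 in WT livers, at 0.92 (SE 0.19, adjusted p = 0.00147). The protease *Ctsl* rose by 0.83 (SE 0.15). The clock repressor *Bhlhe40* was at 1.26 (SE 0.17), with 8.69 to 9.07 in PPARα/CREB3L3−/− livers and 7.34 to 8.31 in WT livers.

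A pair of imprinted genes, chosen after their values were seen, went in opposite directions and beyond both single knockouts. *Meg3*, a long noncoding RNA, read 8.67, 8.36, 9.09 and 8.89 in PPARα/CREB3L3−/− livers and 7.53, 6.58, 7.32 and 6.16 in WT livers (log2 1.86, SE 0.28, adjusted p = 4.29e-05). It was at 1.70 against PPARα−/− and 2.54 against CREB3L3−/− livers. *Peg3*, a zinc finger protein, read 5.82, 5.92, 5.59 and 5.49 in PPARα/CREB3L3−/− livers and 6.75 to 7.03 in WT livers, at -1.2 against WT, -1.0 against PPARα−/− and -1.97 against CREB3L3−/− livers. Under the ketogenic diet *Peg3* was higher by 1.22 in PPARα/CREB3L3−/− than in WT livers, a regimen difference of -2.42 (SE 0.22, adjusted p = 2.10e-08).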
